A study of Homo sapiens with 6 samples.

Results

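The mRNAs of the mitochondrial respiratory chain and ATP synthase were followed in HCT116 MCM2-mAID cells, separately for the genes of the nucleus and those of the mitochondrial genome. The set holds all protein-coding genes of the GENCODE annotation whose symbols begin with NDUFA, NDUFB, NDUFC, NDUFS, NDUFV, UQCR, ATP5 or COX4 to COX8, together with SDHA to SDHD, CYC1 and the mitochondrially encoded protein genes. This rule uses names only. It gives 112 genes, 99 nuclear and 13 mitochondrial. All but COX8C, which had no counts, are among the 25589 genes with a count in these libraries. Of the 112, 106 (93 nuclear, 13 mitochondrial) passed the low-count filter and were tested among 15765 genes.

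HCT116 is an established human colorectal carcinoma line. In the clone used here both alleles of MCM2, a subunit of the replicative helicase, carry a mini auxin-inducible degron (mAID) with a neomycin resistance marker, and the plant F-box protein AtAFB2 is expressed from the CMV promoter. Auxin (3-indoleacetic acid, 500 µM, for 6 h per the study's methods) was given to the cells of 3 libraries and dimethyl sulfoxide (DMSO), the solvent, to those of the other 3. Per the same methods, cells were arrested and released with a double thymidine block and sorted from the left part of the G1 peak. All 6 libraries carry the degron and the F-box protein, so auxin itself and loss of MCM2 cannot be told apart, and the p-values measure the spread between libraries, which the labels do not tie to separate cultures.

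The libraries held between 52.5 and 68.4 M estimated counts. Of all genes tested, 2.46% were called lower and 4.32% higher in auxin (edgeR, adjusted p under 0.1). The degron removes protein, so the mRNA of MCM2 does not check the labels. It lay at 347 to 356 CPM (counts scaled by library size) in auxin and 343 to 389 CPM in DMSO (log2 fold change -0.06, SE 0.05, adjusted p = 0.557). The sum of the colon epithelial markers was 4278 to 4481 CPM in auxin libraries and 4631 to 5116 CPM in DMSO libraries. Of the 8 markers, KRT18 was called lower, CLDN4 was called higher and CDX1 had no counts. The 6 fibroblast markers summed to 31.6 to 39.6 CPM in auxin and 27.2 to 35.7 CPM in DMSO, nearly all of it COL1A1 (31.3 to 39.0 CPM in auxin, 26.7 to 35.0 CPM in DMSO), with the other 5 at 0.24 CPM or less each. The 6 leukocyte and blood markers summed to under 0.9 CPM in every library. The part of these differences in the results below was not tested. In bulk RNA, fewer cells of a kind and less RNA per cell cannot be told apart.

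The respiratory chain lies in the inner mitochondrial membrane. Complex I (NADH dehydrogenase) and complex II (succinate dehydrogenase) pass electrons to ubiquinone, complex III passes them on to cytochrome c, and complex IV (cytochrome c oxidase) passes them to oxygen. Complexes I, III and IV pump protons, and complex V (ATP synthase) lets them flow back to make ATP. The mitochondrial genome encodes core subunits of complexes I, III, IV and V, transcribed inside the organelle as long polycistronic RNAs. All other subunits, complex II whole and the assembly factors come from nuclear genes and are imported as proteins, so the chain is built from both genomes.

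Many nuclear respiratory genes are known targets of NRF1 (nuclear respiratory factor 1). The promoter windows of RefSeq on GRCh38.p14, from 250 bases before to 50 bases after the start, were searched on both strands for the NRF1 core GCGCATGCG. A window was found for 78 of the 99 nuclear members, and for genes with several the most upstream was taken. The core was present in 10 of 78 (12.8%), beside 2.10% of the 27305 genes with a window and 2.76% of the 15843 protein-coding ones. The stretches shown are of 5 members from 4 complexes, 5′ to 3′ on the strand of the gene, with the matched bases in capitals. They were chosen because NDUFAF5 is the member called lower below that holds the core, and the others stand for complexes I, II, IV and V. The core was in 1 of 9 windows of members called lower (11.1%) and in 9 of 66 of tested members not called (13.6%). In complex III 0 of 7 windows held it.

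NDUFAF5: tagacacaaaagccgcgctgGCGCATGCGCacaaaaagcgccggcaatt
NDUFB4: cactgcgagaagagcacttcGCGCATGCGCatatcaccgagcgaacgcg
SDHD: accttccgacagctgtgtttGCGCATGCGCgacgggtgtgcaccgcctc
COX6A1: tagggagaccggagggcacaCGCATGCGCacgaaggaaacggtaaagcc
ATP5F1C: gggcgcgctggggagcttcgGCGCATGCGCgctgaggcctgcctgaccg

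The stretches lie at chr20:13785004-13785052 (NDUFAF5, plus strand), chr3:120596157-120596205 (NDUFB4, plus), chr11:112086743-112086791 (SDHD, plus), chr12:120437874-120437922 (COX6A1, plus) and chr10:7788135-7788183 (ATP5F1C, plus). The match begins 4 bases before the start of NDUFAF5 and spans it, and begins 22 bases before the start of ATP5F1C, 110 before that of SDHD, 159 before that of NDUFB4 and 219 before that of COX6A1. These starts are those of the RefSeq windows. For NDUFAF5 the match lies downstream of the first base of the GENCODE gene given below. In the palindromic form the core is read on both strands, offset by 1 base, so the capitals are the union of both matches.

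Of other motifs, AAGATGGCG of YY1 was present in 9 of 78 member windows (11.5%), in 1.82% of all windows and in 2.69% of protein-coding ones, and CCGGAAGT, bound by GABPA and other ETS factors, in 10 of 78 (12.8%), 4.41% of all and 6.16% of protein-coding ones. The GC box GGGCGG of SP1 was present in 45 of 78 (57.7%), beside 44.5% of all windows and 58.3% of protein-coding ones, and TATAAA in 7 of 78 (8.97%) beside 12.0% of all and 9.75% of protein-coding ones. These matches are letters in a window and no evidence of binding. Members with and without the NRF1 core had close medians. The median log2 fold change (auxin minus DMSO) was -0.12 in the 10 tested members with the core and -0.11 in the 65 without it. For YY1 the medians were -0.12 (9 members) and -0.11 (66 members).

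Many nuclear members were slightly lower in auxin, and no mitochondrially encoded member was called in either direction. Of the 93 nuclear members tested, 11 fell (11.8%, where 2.46% of all genes did), 0 rose (4.32% of all genes), and 88 had a log2 fold change below 0 (94.6%, where 46.5% of all genes did). Most members are short, and the shares of all genes called differ with length, as given below. By edgeR, 48 had an unadjusted p under 0.05, all of them lower in auxin, where 9.56% of all genes had such a p and were lower and 21.1% had one in either direction. The median log2 fold change was -0.11, where it was 0.01 over all genes tested. The 3 auxin libraries lay below all 3 DMSO libraries for 47 of 93 nuclear members (50.5%), which 13% of all genes did, and above them for 0 (13.7% of all genes). Of the 13 mitochondrial genes 0 were called, 0 had a p under 0.05, 4 were below 0, and the median was 0.05.

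**Figure D1:**
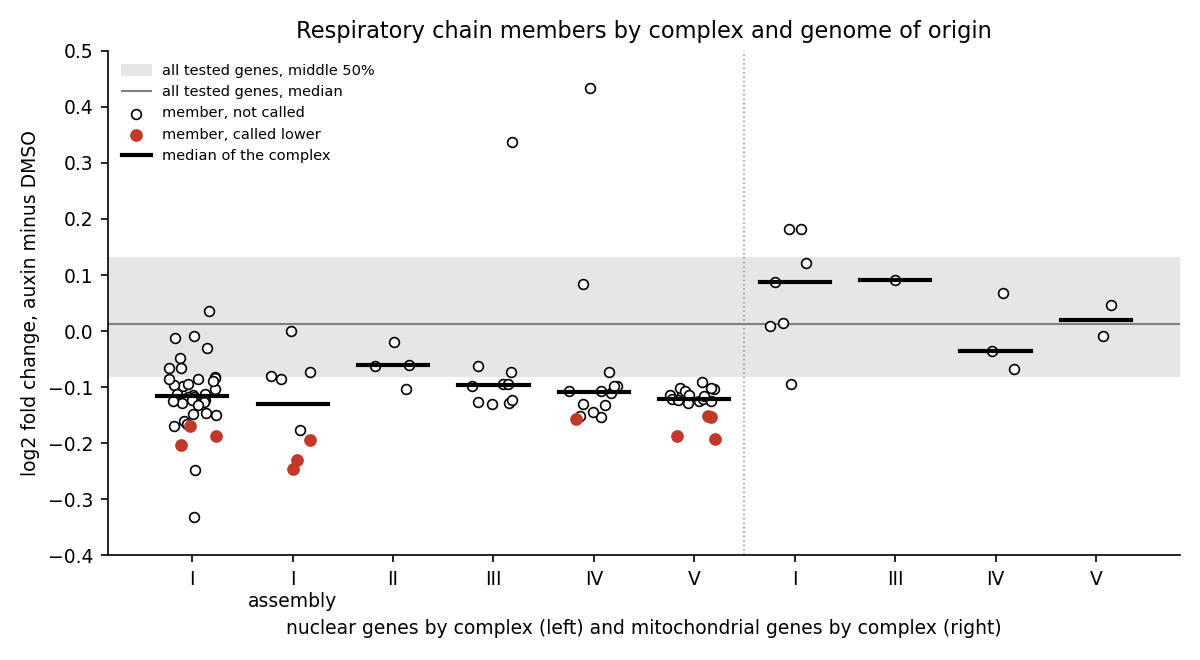
Log2 fold change (auxin minus DMSO) of each of the 106 tested members, by complex, for nuclear genes on the left and mitochondrial genes on the right. Red points are the 11 members called lower, thick bars are the median of each complex, and the grey line and band are the median and middle 50% of all 15765 genes tested. The medians of all 6 nuclear groups lie below the grey line, and those of mitochondrial complexes I, III and V above it.

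The 11 members that fell were 3 complex I subunits (NDUFB7, NDUFS3, NDUFB11), 3 complex I assembly factors (NDUFAF8, NDUFAF4, NDUFAF5), 4 subunits of ATP synthase (ATP5F1D, ATP5MC3, ATP5MJ, ATP5MG) and COX7C of complex IV. None was from complex II or III, where the smallest adjusted p were 0.194 and 0.152. The differences were small, with falls of 9.97% to 15.6%. In all 11 genes every auxin library lay below every DMSO library, which is no further evidence, as the calls were made on these libraries. Apart from NDUFAF8, each of the other 10 was called in only 8 to 12 of 19 alternative settings.

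**Figure D2:**
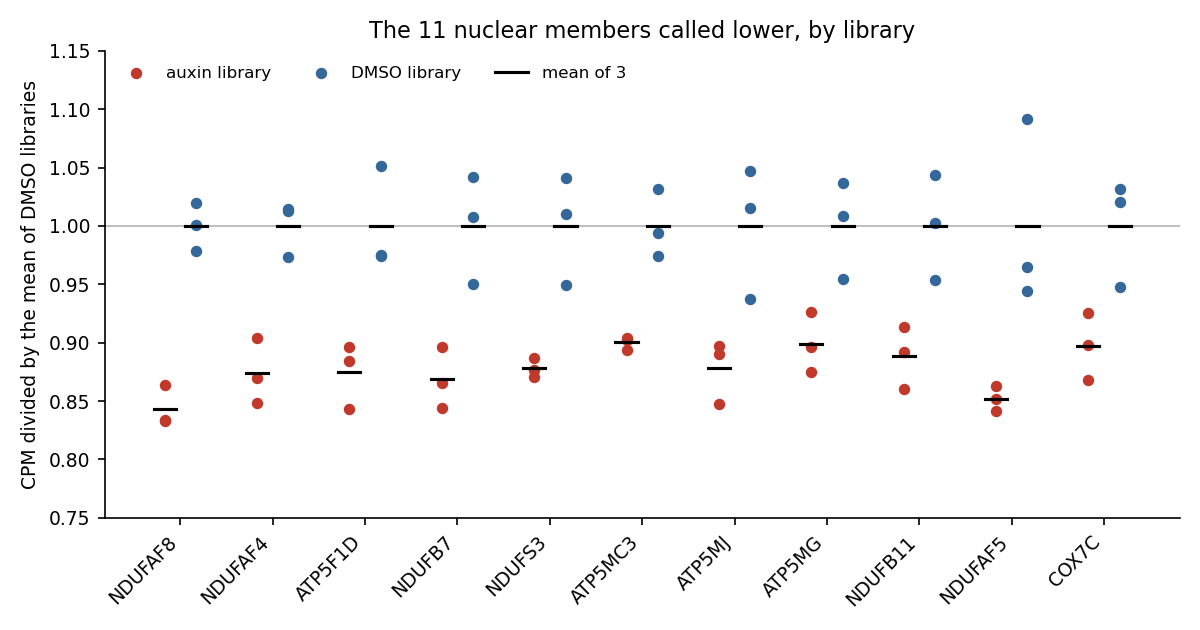
CPM of the 11 members called lower in each library, divided by the mean of the 3 DMSO libraries of that gene, with auxin left of DMSO in red and blue and a bar for the mean of 3. All auxin points lie below all DMSO points in each gene, with the means in auxin between about 0.84 and 0.90 of those in DMSO.

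Complex I assembly factors build the matrix and membrane arms of complex I and leave it again. Of the 8 NDUFAF genes, 3 fell (37.5%, where 2.46% of all genes did), 7 were below 0, and the median log2 fold change was -0.13. NDUFAF8 (ENSG00000224877.4, chromosome 17, 81239305 to 81241310) stood at 48.0, 47.9 and 49.7 CPM in auxin libraries, against 56.3, 57.6 and 58.7 CPM in DMSO libraries. It fell by 0.25 on the log2 scale (SE 0.04, adjusted p = 0.018, edgeR), and was called in 18 of 19 alternative settings. Its protein is known to stabilise that of NDUFAF5, a methyltransferase-like enzyme that hydroxylates an arginine of the core subunit NDUFS7. NDUFAF5 (ENSG00000101247.18, chromosome 20, 13785007 to 13821580), whose promoter holds the NRF1 core shown above, stood at 17.3, 17.5 and 17.1 CPM in auxin and 19.2, 22.2 and 19.6 CPM in DMSO (log2 fold change -0.23, SE 0.07, adjusted p = 0.094). Its DMSO libraries spread more widely than its auxin libraries. NDUFAF4 (ENSG00000123545.6, chromosome 6, 96889315 to 96897891), which acts early in assembly together with NDUFAF3, stood at 45.6, 48.6 and 46.8 CPM in auxin and 52.3, 54.4 and 54.5 CPM in DMSO (log2 fold change -0.19, SE 0.05, adjusted p = 0.0542). NDUFAF1 lay at 0 within its error (SE 0.06, adjusted p = 0.996). The summed level of the 8 genes was 465, 457 and 466 TPM (counts scaled by effective length and to the same sum in each library) in auxin and 499, 495 and 509 TPM in DMSO. On this scale assembly factors and complex V (7096, 7183 and 7241 TPM in auxin, 7317, 7626 and 7522 TPM in DMSO) were the nuclear groups whose libraries did not overlap.

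Among the 38 nuclear genes grouped by name with complex I, 3 fell (7.89%, where 2.46% of all genes did) and 37 were below 0. Their median was -0.12 on the log2 scale. The 7 core subunits, which carry the flavin and iron-sulfur centres or hold the quinone site, had a median of -0.09. The other 31 genes had -0.12. They were counted as accessory subunits, which surround the core, and include the read-through gene NDUFC2-KCTD14. NDUFB7 (ENSG00000099795.7, chromosome 19, 14566078 to 14572066), an accessory subunit of the membrane arm, stood at 53.2, 51.8 and 55.0 CPM in auxin, against 58.4, 61.9 and 64.0 CPM in DMSO (log2 fold change -0.20, SE 0.05, adjusted p = 0.0588). NDUFB11 (ENSG00000147123.12, chromosome X, 47142071 to 47145466), another membrane-arm subunit, stood at 46.1, 47.8 and 48.9 CPM in auxin and 51.1, 53.7 and 55.9 CPM in DMSO (log2 fold change -0.17, SE 0.05, adjusted p = 0.0937). NDUFB11 overlaps RBM10 on the other strand, and the strand setting used in counting is not given in the sources used here.

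NDUFS3 (ENSG00000213619.11, chromosome 11, 47565336 to 47584562), a core subunit of the arm that holds the quinone site, was the only core subunit called, at 46.9, 47.8 and 47.2 CPM in auxin and 51.1, 56.1 and 54.4 CPM in DMSO (log2 fold change -0.19, SE 0.05, adjusted p = 0.0679). Its annotated gene shares sequence with PTPMT1 on the same strand. The most abundant complex I mRNAs were those of NDUFB9, at 740 ± 21.3 TPM in auxin and 791 ± 76.4 TPM in DMSO, and of NDUFS5, at 620 ± 22.2 TPM in auxin and 651 ± 23.6 TPM in DMSO (SD, n = 3 each). Neither passed the threshold. NDUFB9 had -0.15 on the log2 scale (adjusted p = 0.265), and NDUFS5 had -0.12 (adjusted p = 0.180). At the other end stood the read-through gene NDUFC2-KCTD14, which shares sequence with NDUFC2, at 9.45 TPM in auxin and 11.4 TPM in DMSO.

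ATP synthase was the complex with the most members that fell, 4 of 19 tested (21.1%, where 2.46% of all genes did). These 19 genes were grouped by name and are not all subunits. All 19 were below 0, and their median was -0.12 on the log2 scale. The 5 subunits of the F1 head, where ATP is made, had log2 fold changes between -0.19 and -0.11, the 4 of the peripheral stalk between -0.12 and -0.11, the 3 genes of the c-ring between -0.15 and -0.09 and the 5 small membrane subunits between -0.19 and -0.10. ATP5F1D (ENSG00000099624.8, chromosome 19, 1241746 to 1244825), the delta subunit of the central stalk, stood at 102, 96.5 and 101 CPM in auxin, against 111, 111 and 120 CPM in DMSO (log2 fold change -0.19, SE 0.05, adjusted p = 0.0571). In the same head the mRNA of the catalytic beta subunit, ATP5F1B, stood at 1067, 1044 and 1074 CPM in auxin and 1139, 1105 and 1203 CPM in DMSO. Its groups did not overlap either, but it missed the threshold (-0.11 on the log2 scale, SE 0.04, adjusted p = 0.173).

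The c-ring, the rotor through which protons pass, is built from a single mature protein encoded by ATP5MC1, ATP5MC2 and ATP5MC3. ATP5MC3 (ENSG00000154518.10, chromosome 2, 175176258 to 175181710) was the most abundant of the 3, with at least 43.3% of their summed TPM in each library, followed by ATP5MC1 with 34.4% to 37.1% and ATP5MC2 with 18.8% to 20.7%. ATP5MC3 stood at 256, 253 and 255 CPM in auxin and 276, 292 and 281 CPM in DMSO (log2 fold change -0.15, SE 0.04, adjusted p = 0.0693). ATP5MC1 had -0.09 (adjusted p = 0.406) and ATP5MC2 -0.11 (adjusted p = 0.172) on the log2 scale, and whether they differ from ATP5MC3 was not tested.

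The small membrane subunits hold ATP synthase dimers together. ATP5MJ (ENSG00000156411.10, chromosome 14, 103912288 to 103928269) stood at 77.5, 82.1 and 81.4 CPM in auxin and 85.7, 95.8 and 92.9 CPM in DMSO (log2 fold change -0.19, SE 0.05, adjusted p = 0.0786). ATP5MG (ENSG00000167283.9, chromosome 11, 118401346 to 118433278), subunit g, stood at 135, 140 and 132 CPM in auxin, against 144, 157 and 152 CPM in DMSO (log2 fold change -0.15, SE 0.04, adjusted p = 0.0931). ATP5MK, the nuclear member with the highest level per length, had 922 ± 40.6 TPM in auxin and 967 ± 70.0 TPM in DMSO (SD, n = 3 each) and missed the threshold (-0.13 on the log2 scale, adjusted p = 0.283). The near-identical gene ATP5MGL had between 0 and 4 counts and was not tested.

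Within the F1 head the mRNAs were far from equal, although the assembled head holds alpha and beta in equal number. Over all libraries ATP5F1B had the highest level, at 882 ± 22 TPM in auxin and 917 ± 49 TPM in DMSO. ATP5F1A, the alpha subunit, followed at 419 ± 13.4 TPM in auxin and 435 ± 18.1 TPM in DMSO. The gamma subunit ATP5F1C had 221 ± 1.73 TPM in auxin and 230 ± 0.829 TPM in DMSO, next to ATP5F1D with 192 ± 7.21 TPM in auxin and 210 ± 10.6 TPM in DMSO. ATP5F1E, the epsilon subunit, was lowest at 56.6 ± 1.72 TPM in auxin and 59.8 ± 3.97 TPM in DMSO (SD, n = 3 each). This order was the same in both groups.

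In complex IV, 1 of 14 tested nuclear members fell (7.14%, where 2.46% of all genes did) and 12 were below 0, and the median was -0.11 on the log2 scale. COX7C (ENSG00000127184.13, chromosome 5, 86617928 to 86620962), a small subunit without a redox centre, stood at 127, 131 and 135 CPM in auxin and 138, 151 and 149 CPM in DMSO (log2 fold change -0.16, SE 0.05, adjusted p = 0.098). COX6C lay just outside the threshold, at 113, 116 and 115 CPM in auxin and 119, 132 and 132 CPM in DMSO (log2 fold change -0.15, SE 0.05, adjusted p = 0.113). COX4I1, the most abundant nuclear complex IV mRNA and a subunit through which ATP is known to regulate the enzyme, stood at 867 ± 25.4 TPM in auxin and 910 ± 36.8 TPM in DMSO (SD, n = 3 each) and missed the threshold (-0.13 on the log2 scale, SE 0.05, adjusted p = 0.142). COX6A1, also abundant, lay likewise at -0.13 (SE 0.05, adjusted p = 0.144).

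Complex IV has tissue-specific subunits, and these libraries held nearly only the ubiquitous forms. COX4I1 had at least 23428 counts in every library and its lung form COX4I2 at most 1. COX6A1 had at least 10636 and its heart and muscle form COX6A2 at most 1. COX7A2 held 87.0% to 88.5% of the TPM of its family, COX7A2L, which takes part in supercomplexes, at least 11.4%, and the muscle form COX7A1 had 3 to 9 counts. The testis forms COX6B2 (36 to 61 counts) and COX7B2 (0 or 1 count) were at or near the bottom of their families, and COX8C had 0 counts in all 6 libraries. A count of 0 allows up to 3 counts, or 0.0462 to 0.0603 CPM per library, a limit that covers counting error only. NDUFA4, known as a complex IV subunit, had at least 4928 counts, and the hypoxia-induced NDUFA4L2 had 8 to 25. The 5 muscle markers DES, CKM, ACTA1, MYH7 and TNNT2 together stood at 6.72 to 7.12 CPM in auxin and 6.07 to 6.59 CPM in DMSO. Most of it was DES, at 5.62, 5.81 and 5.84 CPM in auxin and 5.56, 4.86 and 5.46 CPM in DMSO (adjusted p = 0.462, edgeR). The next highest marker, TNNT2, stood at 0.77 CPM or less. COX4I2, COX6A2, COX7A1, COX7B2, COX8C and ATP5MGL are the 6 members that did not pass the low-count filter.

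Complexes II and III had no member called. The 4 subunits of complex II, which also works in the tricarboxylic acid cycle, had the smallest median, -0.06. SDHB, the iron-sulfur subunit, stood at 105, 107 and 108 CPM in auxin, against 110, 117 and 117 CPM in DMSO (log2 fold change -0.10, SE 0.04, adjusted p = 0.194). The membrane anchors SDHC and SDHD both had -0.06, and SDHA, the flavin subunit, had -0.02 (SE 0.04, adjusted p = 0.844). On the TPM scale the summed level of complex II was 542, 527 and 538 TPM in auxin and 527, 541 and 539 TPM in DMSO, with the groups interleaved.

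The 10 nuclear genes of complex III had a median of -0.10 on the log2 scale, with 9 below 0 and 6 whose auxin libraries lay below all DMSO libraries (13% of all genes). UQCRQ, a small subunit, had the smallest p of the complex, at 89.9, 93.6 and 91.3 CPM in auxin and 94.9, 105 and 101 CPM in DMSO (log2 fold change -0.13, SE 0.05, adjusted p = 0.152). UQCRB, which binds ubiquinone, was close to it (log2 fold change -0.13, SE 0.05, adjusted p = 0.156). UQCRH, the hinge subunit that docks cytochrome c1 to cytochrome c, had the highest level, 771 ± 6.98 TPM in auxin and 806 ± 34.5 TPM in DMSO (SD, n = 3 each), and its copy UQCRHL had 12 to 20 counts, so few reads were assigned to that copy. The nuclear genes above 0 in all complexes were NDUFA3, NDUFAF1, UQCRHL, COX6B2 and NDUFA4L2, named after their values were seen, with adjusted p of 0.532 or more.

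Per library, the nuclear complexes moved together. The median over nuclear members of the deviation from each gene's own mean (log2 CPM) was -0.09, -0.04 and -0.04 in the auxin libraries and -0.01, 0.09 and 0.08 in the DMSO libraries. DMSO replicate 1 was the lowest DMSO library for 74 of 93 nuclear members, and auxin replicate 1 the lowest auxin library for 61. Without DMSO replicate 1, 48 nuclear members were called (51.6%, and 5.09% of all genes), while without auxin replicate 2 the number was 0 (0.144% of all genes). Leaving out any other single library gave 1 to 4, beside 0.305% to 2.10% of all genes. The calls of single genes rest on which libraries are used, while the nuclear median stayed between -0.16 and -0.10 in these fits.

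**Figure D3:**
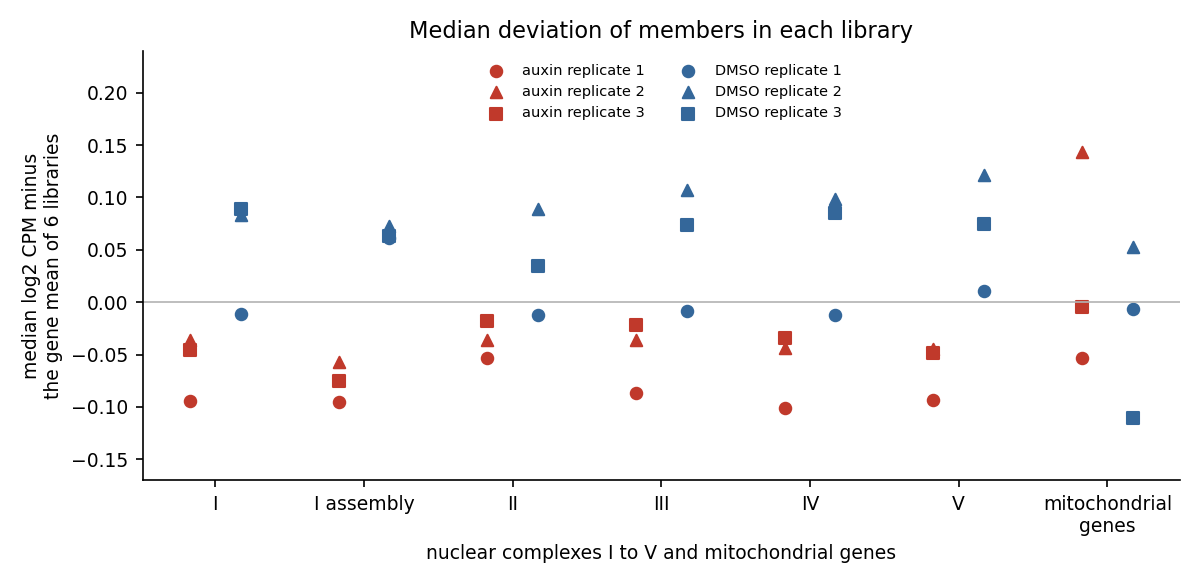
Median over members of log2 CPM minus the gene's mean over 6 libraries, for each nuclear complex and for the mitochondrial genes, with auxin replicates in red left of DMSO replicates in blue and a marker shape for each replicate number. In all 6 nuclear groups the auxin libraries lie below the DMSO libraries, with DMSO replicate 1 the lowest of the DMSO libraries, and the mitochondrial genes are ordered differently.

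The mitochondrial genes were far more abundant than the nuclear ones and varied in another order between libraries. Together the 13 made up 16.3%, 17.8% and 16.5% of all TPM in auxin libraries and 16.2%, 16.3% and 14.9% in DMSO libraries, and the 99 nuclear members 2.26%, 2.27% and 2.31% in auxin and 2.30%, 2.42% and 2.41% in DMSO. The ratio of mitochondrial to nuclear summed TPM was 7.20, 7.86 and 7.14 in auxin, against 7.03, 6.74 and 6.19 in DMSO. The groups did not overlap in this ratio, with the lowest auxin library close to the highest DMSO library. As a score over chosen members it is given with no test. Auxin replicate 2 was the highest of all 6 libraries for 9 of 13 mitochondrial genes and DMSO replicate 3 the lowest for 9 of 13.

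The largest differences among mitochondrial genes were in subunits of complex I. MT-ND4L stood at 1644, 1900 and 1623 CPM in auxin, against 1595, 1620 and 1338 CPM in DMSO (log2 fold change 0.18, SE 0.09, adjusted p = 0.266). It was the single mitochondrial gene whose groups did not overlap, with the lowest auxin library barely above the highest DMSO library. Of all genes, 13.7% had every auxin library above every DMSO library. MT-ND5, a proton-pumping subunit, stood at 5916, 6858 and 5758 CPM in auxin and 5749, 5904 and 4684 CPM in DMSO (log2 fold change 0.18, SE 0.10, adjusted p = 0.334). MT-ND6, the only protein gene on the light strand and one whose mRNA is known to carry little or no poly(A), stood at 2001, 2337 and 2029 CPM in auxin and 2047, 1976 and 1833 CPM in DMSO (log2 fold change 0.12, SE 0.07, adjusted p = 0.324). In MT-ND5 and MT-ND6 auxin replicate 2 and DMSO replicate 3 lay apart from libraries that otherwise overlapped. MT-ND3 went the other way, at 1592, 1652 and 1555 CPM in auxin and 1645, 1742 and 1735 CPM in DMSO (log2 fold change -0.09, SE 0.04, adjusted p = 0.251).

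**Figure D4:**
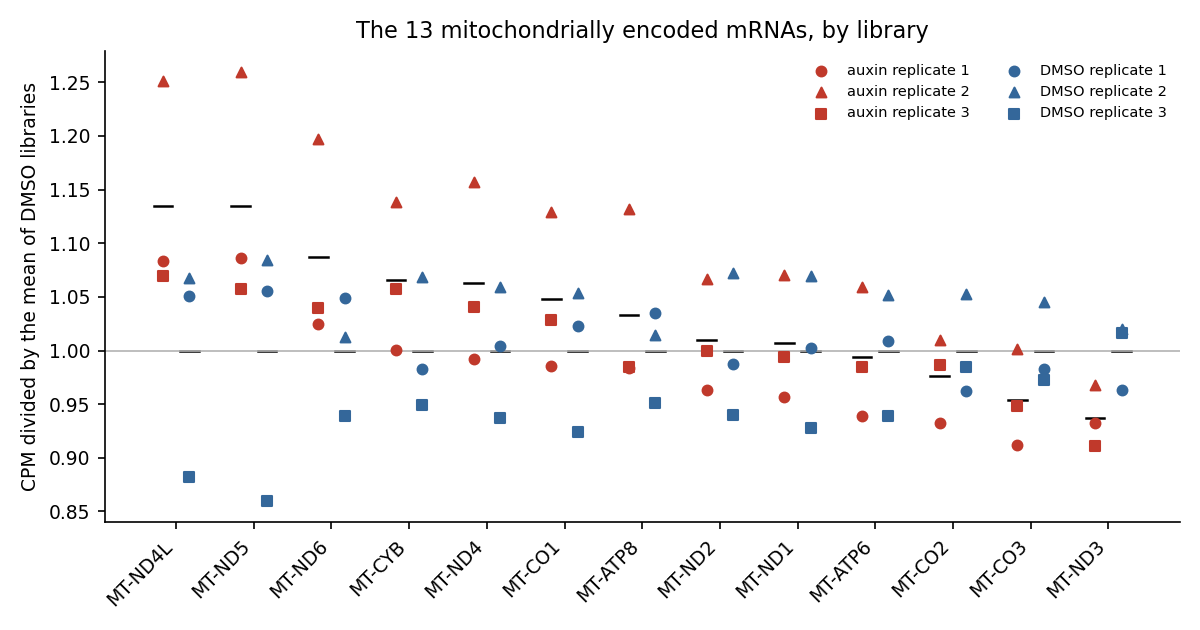
CPM of the 13 mitochondrially encoded mRNAs in each library, divided by the mean of the 3 DMSO libraries of that gene, with auxin in red left of DMSO in blue, a marker shape for each replicate number and a bar for the mean of 3. Genes are ordered by log2 fold change from MT-ND4L (0.18) to MT-ND3 (-0.09), and auxin replicate 2 is the highest auxin library in all 13.

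On the log2 scale MT-ND4 differed by 0.09 (SE 0.07) and MT-CYB, the complex III subunit that holds both haems b, also by 0.09 (SE 0.06). MT-ND4 is read from the same mRNA as MT-ND4L, which had 0.18, and whether they differ was not tested. MT-ND1 and MT-ND2 both lay at 0.01. Of the complex IV subunits, the catalytic MT-CO1 had 0.07 (SE 0.07), MT-CO2, which receives electrons from cytochrome c, -0.04 (SE 0.05), and MT-CO3 -0.07 (SE 0.05). The ATP synthase subunits MT-ATP8 and MT-ATP6 had 0.05 and -0.01 (SE 0.06 each). Adjusted p ran from 0.251 to 0.958 over the 13 genes. SEs ran from 0.04 to 0.10, and the typical SD of log2 CPM within a group was 0.09 in both auxin and DMSO for mitochondrial genes, beside 0.04 in auxin and 0.07 in DMSO for nuclear members.

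Levels per length differed several-fold between mRNAs cut from the same long transcripts. MT-CO2 had 19633 ± 528 TPM in auxin and 19309 ± 616 TPM in DMSO, MT-CO3 17268 ± 565 TPM in auxin and 17372 ± 482 TPM in DMSO, and MT-ND5, the lowest, 4791 ± 406 TPM in auxin and 4049 ± 479 TPM in DMSO (SD, n = 3 each). MT-ATP8 was listed highest, at 22404 ± 1588 TPM in auxin and 20715 ± 1334 TPM in DMSO, but its effective length is 64.2 bases on average, so its TPM depends on the length correction. MT-ND4L and MT-ND4 were neighbours in this order, at 16095 ± 1284 and 15120 ± 987 TPM in auxin and 13656 ± 1571 and 13641 ± 718 TPM in DMSO (SD, n = 3 each), and did not differ beyond their spread. MT-ATP8 and MT-ATP6 are read from the same mRNA in overlapping frames, as are MT-ND4L and MT-ND4, so reads over the shared bases are divided between the genes by kallisto. The overlap of MT-ATP8 and MT-ATP6 is shown because it is the reason that their counts are not independent. It has 46 bases, chrM:8527-8572 on the plus strand of GRCh38, with the start codon of MT-ATP6 in capitals, and the overlap of MT-ND4L and MT-ND4 has 7 bases.

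MT-ATP8/MT-ATP6: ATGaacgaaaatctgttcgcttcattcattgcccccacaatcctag

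Some members have annotated pseudogenes between which reads can move. Counts assigned to annotated pseudogenes of MT-ATP6 came to 13.4% of the sum of gene and pseudogenes in each auxin library and 13.7% to 14% in DMSO libraries, and those of NDUFV2 to 7.91% to 8.24% in auxin and 7.63% to 8.37% in DMSO. Adding pseudogene counts to each member left the numbers called at 11 nuclear and 0 mitochondrial.

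Effective length went with the fold change in all genes and in the nuclear members alike. Most nuclear members are short. Across the 93 nuclear members Spearman's rho between log2 fold change and effective length was 0.28, and over all 15765 genes 0.29, where genes share libraries and are not independent replicates. Level went with the fold change too, with rho for TPM at -0.34 in the nuclear members and -0.35 over all genes. The median level was 192 TPM in tested nuclear members and 9.46 TPM over all genes tested. The part of level in the member results was not tested. Among genes of up to 500 bases the median was -0.12 in 39 nuclear members and -0.09 in all 704 genes, and from 500 to 1000 bases -0.12 in 32 members and -0.07 in all 2012. Above 2000 bases it was -0.07 in 6 members and 0.05 in 7985 genes. Calls over all genes went with length too. Up to 500 bases 38 of 704 were lower and 3 higher, and from 500 to 1000 bases 99 of 2012 were lower and 10 higher. From 1000 to 2000 bases 174 of 5064 were lower and 76 higher, and above 2000 bases 77 of 7985 were lower and 592 higher. Of the members called lower, 5 had up to 500 bases and 6 had 500 to 1000. With the length trend of all genes removed, 10 nuclear members were called lower (10.8%, and 4.65% of all genes), 8 of them among the 11, and the nuclear median was -0.10 with all genes at -0.03. The summed CPM of nuclear members separated the groups (10393, 10604 and 10694 in auxin, 10991, 11704 and 11673 in DMSO), while the summed TPM did not (22627, 22689 and 23108 in auxin, 23047, 24244 and 24142 in DMSO).

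**Figure D5:**
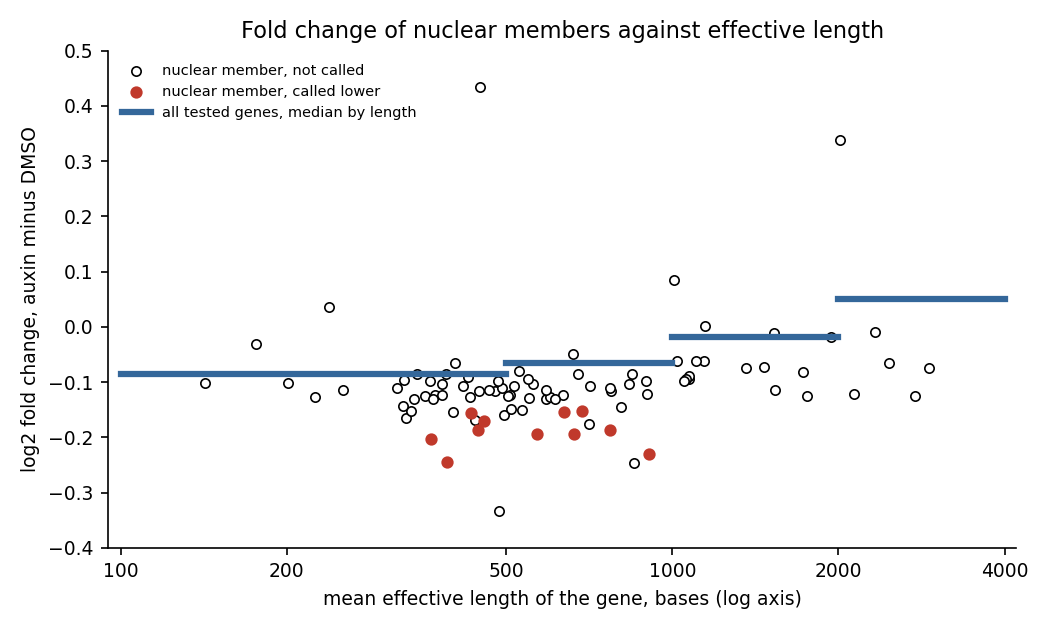
Log2 fold change (auxin minus DMSO) of the 93 tested nuclear members against mean effective length in bases on a log axis, with the 11 members called lower in red. Blue bars are the medians of all genes tested up to 500, 1000 and 2000 bases and above, and most members lie below the bar of their own length.

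The genes around the chain were read from lists of other pathway members. Cytochrome c, the mobile carrier between complexes III and IV, is encoded by CYCS, which fell, with 494, 516 and 497 CPM in auxin and 534, 567 and 562 CPM in DMSO (log2 fold change -0.14, SE 0.04, adjusted p = 0.094). In its list of carriers and quinone synthesis 2 of 20 genes were called lower and 0 higher, where 2.46% of all genes were called lower and 4.32% higher. The other was DHODH, which passes electrons from pyrimidine synthesis to ubiquinone, at 20.4, 20.4 and 19.5 CPM in auxin and 23.3, 23.3 and 22.2 CPM in DMSO (log2 fold change -0.19, SE 0.05, adjusted p = 0.0927). The list as a whole did not lean lower, with 10 of 20 genes below 0 (46.5% of all genes) and a median of 0.01. Of 40 assembly factors for complexes II to V, 2 were called lower and 0 higher, beside the same shares of all genes. They were UQCC3 for complex III (log2 fold change -0.22, SE 0.06, adjusted p = 0.091) and COX16 for complex IV (log2 fold change -0.16, SE 0.05, adjusted p = 0.0927). The 13 complex I assembly factors outside the NDUFAF genes had 0 called in either direction, with 4 at an unadjusted p under 0.05 (21.1% of all genes) and a median of -0.06. The 18 genes of the tricarboxylic acid cycle had 0 called, 5 at an unadjusted p under 0.05 (likewise beside 21.1%), and 17 below 0 (46.5% of all genes) with a median of -0.08.

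Genes that keep and transcribe mitochondrial DNA differed little. Of 16, 1 was called lower and 0 higher, beside 2.46% and 4.32% of all genes. This was SSBP1, the mitochondrial single-strand binding protein, at 107, 105 and 104 CPM in auxin and 114, 121 and 127 CPM in DMSO (log2 fold change -0.19, SE 0.05, adjusted p = 0.0572). TFAM, which packs and activates mitochondrial DNA, had -0.07 on the log2 scale (SE 0.04, adjusted p = 0.426) and POLRMT, the mitochondrial RNA polymerase, -0.04 (SE 0.05, adjusted p = 0.722). In this list 9 of 16 genes were below 0 (46.5% of all genes), and the median was -0.03. Of 21 genes for mitochondrial RNA processing and stability, 0 were called, 9 had an unadjusted p under 0.05 (21.1% of all genes) and 20 were below 0 (46.5% of all genes). Their median was -0.10. LRPPRC, which stabilises mitochondrial mRNAs, had -0.08 (SE 0.04, adjusted p = 0.326).

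Among 12 tested nuclear regulators of respiratory genes 1 was called, and it was higher, where 4.32% of all genes were. In this list 5 of 12 were below 0 (46.5% of all genes), and the median log2 fold change was 0.01. SP1, a GC-box factor, rose to 89.2, 91.3 and 88.7 CPM in auxin, against 79.2, 74.3 and 75.8 CPM in DMSO (log2 fold change 0.23, SE 0.04, adjusted p = 0.0213), and was called in 16 of 19 alternative settings. Its call was lost with the length trend removed (adjusted p = 0.232), with the length and GC trend removed (0.223) and without auxin replicate 2 (0.137). The other list genes named as called held in fewer settings, with 11 of 19 for SSBP1, 10 for CYCS and UQCC3, 9 for DHODH and 8 for COX16. NRF1 stood at 42.1, 37.9 and 34.3 CPM in auxin and 45.7, 40.7 and 38.2 CPM in DMSO, with overlapping groups (log2 fold change -0.13, SE 0.09, adjusted p = 0.427). GABPA had 0.02 (SE 0.04, adjusted p = 0.836). PPARGC1A, the coactivator PGC-1alpha, had between 0 and 3 counts in each library and was not tested.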

How the data were processed

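The members, motifs and lists were chosen with earlier results of these data known. Poly(A)-selected, strand-marking mRNA libraries were sequenced in paired ends, and reads were assigned by the authors with kallisto to hg38 transcripts. The transcript release is not given in the sources used here. The deposited values are estimated counts per transcript, not normalised, with the effective length. Of 199240 transcripts 178869 (89.8%) matched GENCODE release 44, with 96.2% to 96.3% of the counts of each library, and were summed to 36415 genes and rounded. The study tested transcripts with sleuth at a false discovery rate of 0.1. Here genes were tested with edgeR 4.0.16 (R 4.3.3, quasi-likelihood, TMM, minimum count 10 and minimum total 15), treatment only, with Benjamini-Hochberg adjustment over 15765 genes and calls at adjusted p under 0.1. CPM use TMM factors, TPM were computed from counts and effective lengths, fold changes on the log2 scale are auxin over DMSO with their standard error (SE). The test was tried on simulated counts.

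Named were all 13 mitochondrial genes, all called nuclear members, the 2 of smallest p and the 2 of highest TPM in each complex, isoform families, up to 3 called genes per list, and CYCS, TFAM, POLRMT, NRF1, GABPA, PPARGC1A and LRPPRC. Complex II and the F1 head are given whole, which was decided after their values were seen, as were the subunits of the promoter stretches. Alternatives were DESeq2 1.42.0, limma-voom 3.58.1, upper-quartile factors, other filters, effective-length offsets, removal of length and GC trends, log2(TPM + 1) and log2(TPM + 0.1) with limma, pseudogene counts, mitochondrial genes left out, a replicate block and leaving out each library.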

Additional observations from a re-analysis of the deposited data

How the results depend on the processing

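No nuclear member was called higher in any of the 19 alternatives. The number of nuclear members called lower, 11 with edgeR, was 32 with DESeq2 (3.54% of 25589 genes) and 7 with limma-voom (2.33% of all genes). DESeq2 was run without the low-count filter, and some genes got no adjusted p. Its 907 genes called lower are set against more genes than the 15765 of the main fit, which makes that share smaller. The number of members was 1 where offsets held the effective lengths (0.546%), and 1 on either log2(TPM + 1) (0.203%) or log2(TPM + 0.1) (0.216%), and the single one was NDUFAF8. The number called lower stayed within 1.5 times of 11 with upper-quartile factors, other filters, trends removed, pseudogenes added or mitochondrial genes left out. The share of all genes called lower changed more. It was 2.46% in the main fit, 4.65% after taking out the length trend and 5.68% after taking out both trends. The nuclear members stood at 11.8%, 10.8% and 9.68% in the same order, so their excess over all genes shrank. Over the fits without 1 library the number of members ran from 0 to 48. The nuclear median log2 fold change was -0.053 on log2(TPM + 1) and -0.054 on log2(TPM + 0.1), where all genes were at 0.05 and 0.07, and ran from -0.16 to -0.095 without 1 library. By complex, on the same TPM scales, it was -0.0546 and -0.055 (I), -0.066 and -0.067 (I assembly), 0.0067 and 0.0067 (II, turned in sign), -0.0349 and -0.035 (III), -0.0533 and -0.0534 (IV) and -0.0564 and -0.0566 (V). Without 1 library it ran from -0.16 to -0.096 (I), -0.16 to -0.11 (I assembly), -0.099 to -0.037 (II), -0.15 to -0.086 (III), -0.17 to -0.096 (IV) and -0.15 to -0.11 (V). The mitochondrial median turned to -0.023 without auxin replicate 2 and was at most 0.082 in the other such fits. The log2 ratio of summed levels in nuclear members, -0.06 on TPM, was -0.12 on CPM. The causes of these shifts were not tested.

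With a replicate block, 69 nuclear members were called lower and 0 higher, and of the mitochondrial genes MT-ND3 was called lower (1) and MT-ND4L, MT-ND5 and MT-ND6 higher (3). In the same fit 14.6% of all genes were called lower and 16.2% higher. Deviations of samples with the same number correlated at 0.177, 0.0514 and 0.0675, not all above 0.1, so the numbers were not taken as pairs. Each library nonetheless correlated best with the one of its own number, a hint from the data and not from the design. The 11 called members had at least 1056 counts in each library. The 6 members under the low-count filter were not tested.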
